A study of Mus musculus with 10 samples.

Results

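The transcripts of the mitochondrial ribosomal proteins were examined in hearts of mouse embryos with and without the coxsackievirus and adenovirus receptor (CAR), a cell adhesion protein encoded by Cxadr. Members were all genes named Mrpl or Mrps followed by a number that the array annotation assigned alone to a probe set (called a transcript cluster here). The rule found 77 genes, 48 of the large subunit (Mrpl) and 29 of the small subunit (Mrps) by name, among 19938 genes measured. Mrpl53 shared its cluster with another gene and was therefore not included. Hearts of untreated embryos at day E10.5 were taken from matings of CAR heterozygous mice, with 5 samples of homozygous CAR knockout (CAR KO) hearts and 5 samples of wild type (WT) hearts, each pooled from 3 hearts. The knockout was global, so that every cell type of the embryo lacked CAR. Total RNA was measured on Affymetrix Mouse Gene 1.0 ST arrays, and each value is a log2 signal. Whole hearts contain several cell types, so that fewer cells of a type and less RNA per cell cannot be told apart.

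Mitochondria have their own ribosome, which translates the few proteins encoded by mitochondrial DNA, all of them core subunits of the respiratory chain and of the ATP synthase. Its RNA comes from mitochondrial DNA, whereas its proteins are encoded in the nucleus, made in the cytosol and imported. Each subunit has a core of proteins related to those of bacterial ribosomes, surrounded by proteins found only in mitochondria. The heart depends strongly on respiration, and inherited defects of several of these proteins cause cardiomyopathy in humans.

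The promoters of many of these genes are known to hold sites for NRF1 and for GABP, a factor of the ETS family, which both drive nuclear genes for mitochondrial proteins. RefSeq promoter sequences (GRCm38.p6) matched 68 of the 77 members. In the 250 bases before the transcription start, the NRF1 word, GCGC and TGCGC with any 1 base between them, read on both strands, was found in 10 of the 68 (14.7%) and in 5.84% of 17492 protein-coding genes. The GABP word CCGGAAG, likewise read on both strands, was found in 17 members (25%) and in 10.2% of all genes. A gene with several listed starts was counted if any of them held the word. Of the 10 members with the NRF1 word, 9 belonged to the large and 1 to the small subunit. Of the 17 with the GABP word, 11 belonged to the large and 6 to the small subunit. All 77 members include 48 large and 29 small subunit genes, but these counts also hold the 9 members without a matched promoter. A match of letters does not show that a factor binds. The 5 promoters shown carry these words, which stand in capitals, and none of these windows overlapped an annotated gene. Mrpl39 (chr16:84735245-84735494, minus strand) and Mrpl12 (chr11:120484387-120484636, plus strand) hold the NRF1 word. Mrpl3 (chr9:105053018-105053267, plus strand) and Mrps22 (chr9:98601680-98601929, minus strand) hold the GABP word close to the start. Mrpl17 (chr7:105811088-105811337, minus strand) was the 1 member with both. Each is written 5′ to 3′ in the direction of its gene.
Mrpl39: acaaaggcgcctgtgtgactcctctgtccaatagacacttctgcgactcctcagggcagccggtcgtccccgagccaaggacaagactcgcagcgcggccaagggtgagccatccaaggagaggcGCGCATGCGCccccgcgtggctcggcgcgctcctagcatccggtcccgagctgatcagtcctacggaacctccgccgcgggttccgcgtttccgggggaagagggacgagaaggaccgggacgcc
Mrpl12: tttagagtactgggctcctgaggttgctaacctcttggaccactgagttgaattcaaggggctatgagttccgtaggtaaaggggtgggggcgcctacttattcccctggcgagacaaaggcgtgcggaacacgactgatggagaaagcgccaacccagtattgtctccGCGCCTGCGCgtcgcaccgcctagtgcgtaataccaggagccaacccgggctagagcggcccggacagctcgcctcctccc
Mrpl3: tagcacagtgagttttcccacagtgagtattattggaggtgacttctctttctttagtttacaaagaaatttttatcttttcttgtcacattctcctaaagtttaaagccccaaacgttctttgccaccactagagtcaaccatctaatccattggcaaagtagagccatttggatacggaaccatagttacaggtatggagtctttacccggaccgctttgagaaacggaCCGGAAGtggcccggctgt
Mrps22: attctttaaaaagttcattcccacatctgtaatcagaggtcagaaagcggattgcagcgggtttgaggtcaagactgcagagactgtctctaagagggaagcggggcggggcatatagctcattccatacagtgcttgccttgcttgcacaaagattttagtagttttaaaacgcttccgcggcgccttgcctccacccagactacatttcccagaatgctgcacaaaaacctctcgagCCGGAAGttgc
Mrpl17: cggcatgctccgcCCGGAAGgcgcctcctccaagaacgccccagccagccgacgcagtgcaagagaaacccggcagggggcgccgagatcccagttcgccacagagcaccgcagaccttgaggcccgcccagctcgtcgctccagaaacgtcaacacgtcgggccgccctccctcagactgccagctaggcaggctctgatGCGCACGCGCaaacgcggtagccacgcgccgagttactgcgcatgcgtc

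The 2 genotypes were clearly separated by the targeted gene. Cxadr (chr16:78301226-78359785, GRCm38.p6) gave log2 signals of 6.69, 6.56, 6.37, 6.47 and 6.23 in CAR KO hearts, against 8.28, 8.25, 8.46, 8.66 and 8.24 in WT hearts. Its log2 fold change was -1.91 ± 0.10 (SE, n = 5 per genotype; limma adjusted p = 1.40e-05), and it was the only one of 28944 transcript clusters that passed an adjusted p of 0.05 (0.00345%). In 3 of 5 CAR KO samples its signal was below the background level of the array, a log2 signal of 6.512 taken from olfactory and vomeronasal receptor genes. With such signals set to that level, Cxadr was at least 3.53-fold lower in CAR KO hearts. All 9 cardiomyocyte markers were strongly detected in all samples. Liver and yolk sac markers varied widely, with list means between 7.22 and 11.23 in CAR KO samples and between 7.80 and 10.17 in WT samples, highest in CAR KO sample 5, WT sample 5 and WT sample 2. The labels do not say whether the samples came from separate litters, so that the p-values measure only the spread between these samples. Array medians lay between 7.653 and 7.729, and the number of arrays limits the precision of all values.

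All 77 members were detected above the background level. None of them passed an adjusted p of 0.05 in the limma fit over all clusters. At an unadjusted p under 0.05, 1 member was counted (Mrps23, higher in CAR KO), which is 1.3% of the members against 2.4% of all transcript clusters. Over all clusters, 0.978% were higher and 1.43% lower in CAR KO at this p, and none of the members was counted as lower. In none of the members were the 5 CAR KO samples separated from the 5 WT samples without overlap, which was the case for 0.359% of all clusters. The log2 fold changes ranged from -0.16 (Mrps17) to 0.13 (Mrps23) with a median of 0.029, beside 0.0074 for all genes. By sign alone, 53 members were higher and 24 lower in CAR KO hearts (68.8% higher, against 54.2% of all genes). Among the 14661 genes above the background level, 49.9% were higher and the median log2 fold change was -0.0002. The difference in these shares was not tested.

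To see how large a difference the arrays leave possible, the 95% confidence interval of each fold change was compared with a change of 1.2-fold in either direction. The interval lay within this limit for 72 of 77 members, compared with 61.3% of all genes. For the remaining 5 members, Mrpl13, Mrpl20, Mrpl22, Mrpl47 and Mrps17, the interval reached beyond a 1.2-fold change in at least 1 direction. All 77 intervals lay within a 1.5-fold change, as did 97.4% of those of all genes. No correction for the many genes measured was applied to these intervals. Leaving out CAR KO sample 5, WT sample 2 and WT sample 5, which were the richest in liver markers, reduced the count within 1.2-fold to 48. Fewer samples also widen the intervals, and leaving out any 1 sample gave 59 to 70 members within this limit. The median log2 fold change of the members without the 3 samples was 0.052. That of all genes was then 0.021, against 0.0074 with all samples.

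**Figure D1:**
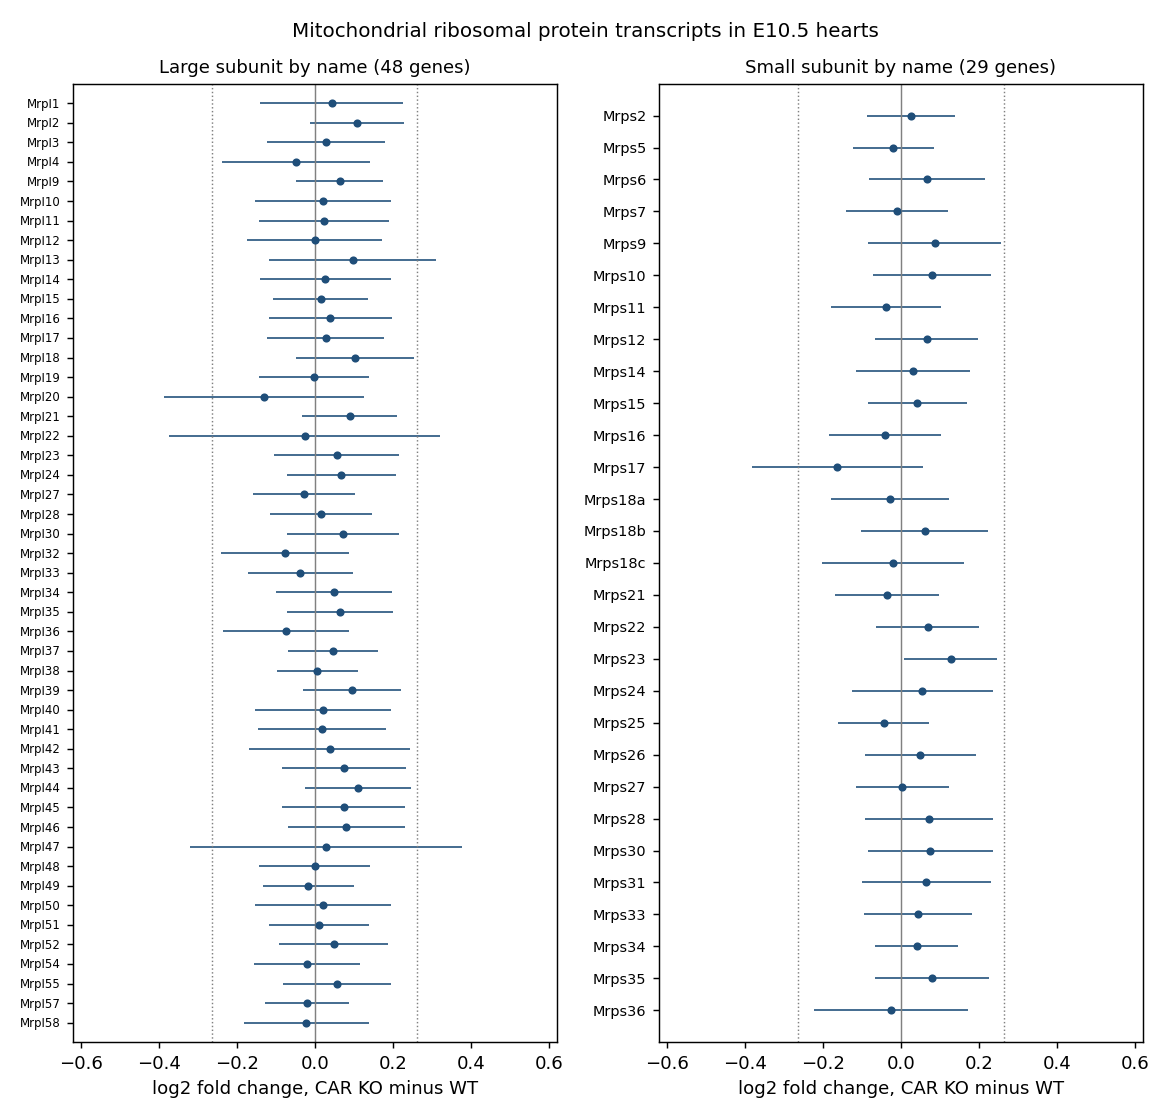
Log2 fold changes (CAR KO minus WT, points) with 95% confidence intervals (bars, n = 5 per genotype) of the 48 large subunit and 29 small subunit genes by name. Dotted lines mark a 1.2-fold change, and 72 of the 77 intervals lie between them.

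The median log2 fold change was 0.028 for the 48 large subunit genes, of which 34 were higher in CAR KO hearts by sign, and 0.042 for the 29 small subunit genes, of which 19 were higher. Both medians depended on single samples and were 0.0099 for the large subunit without CAR KO sample 3 and 0.017 for the small subunit without WT sample 1. With array weights the order was turned, with 0.026 for the large and 0.015 for the small subunit. The large subunit averaged 9.896 ± 0.0502 in CAR KO samples and 9.87 ± 0.0402 in WT samples (SD, n = 5 each). The small subunit averaged 9.844 ± 0.0501 in CAR KO samples and 9.82 ± 0.036 in WT samples. The difference between the subunit means was 0.0519 ± 0.0147 in CAR KO samples and 0.0504 ± 0.0152 in WT samples, so that both subunits moved together from sample to sample. The size of this offset itself depends on the probes and carries no information about the amounts of the subunits.

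The names do not always give the position in the ribosome. Mrps18a and Mrps30 are placed in the large subunit by structures of the mammalian mitochondrial ribosome, and Mrps36 is a subunit of the α-ketoglutarate dehydrogenase complex. With Mrps18a and Mrps30 counted as large subunit proteins and Mrps36 left out, the medians were 0.028 for 50 large and 0.042 for 26 small subunit genes. Mrps18a, Mrps18b and Mrps18c are paralogues, of which Mrps18c lies in the small subunit at the place of the bacterial protein. Their log2 fold changes were -0.03 (95% confidence interval -0.18 to 0.12), 0.06 (-0.10 to 0.22) and -0.02 (-0.20 to 0.16). Mrps30 had a log2 fold change of 0.07 (-0.09 to 0.23) and Mrps36 of -0.03 (-0.22 to 0.17).

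Grouped by origin, the 30 large subunit proteins with bacterial relatives had a median log2 fold change of 0.028 and the 15 of the small subunit of 0.026. Among proteins specific to mitochondria, the median was 0.021 for 17 genes of the large and 0.057 for 10 genes of the small subunit. In the last group 9 of 10 genes were higher in CAR KO hearts by sign, beside 68.8% of all members and 54.2% of all genes. Only Mrps23, the member counted above, had an unadjusted p under 0.05 there (10% of the group, against 2.71% of all genes). These differences between groups were not tested. Proteins of the stalk, which recruits translation factors, had a median of 0.02 (3 genes measured of 4). The central protuberance, which contacts the small subunit, had a median of 0.021 (7 genes). Proteins around the exit tunnel and the membrane anchor, such as Mrpl45, had a median of 0.062 (6 genes), and none of these 16 genes had an unadjusted p under 0.05.

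Mrps23 (chr11:88194106-88211507), a small subunit protein specific to mitochondria, had the smallest limma p of all members. Its log2 signals were 10.15, 10.16, 10.30, 10.23 and 10.14 in CAR KO hearts, against 10.05, 10.06, 10.05, 10.17 and 10.03 in WT hearts. WT sample 4 lay among the CAR KO samples, whereas the other WT samples were below all of them. The log2 fold change was 0.13 ± 0.05 (SE), with an unadjusted limma p of 0.0391 and an adjusted p near 1. Over the alternative analyses its unadjusted p ranged between 0.0131 and 0.12. A two-sided exact permutation test over the samples gave p = 0.0317, where the smallest possible p is 0.00794. This p was not adjusted for the 25 named members tested in this way. Mrps23 was named for its small limma p among all members in the same samples, so this test is no separate support.

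Mrpl2 (chr17:46646172-46650132), whose bacterial relative lies near the peptidyl transferase center, followed. Its log2 signals were 9.91, 9.84, 9.85, 9.99 and 9.76 in CAR KO hearts, against 9.73, 9.74, 9.76, 9.75 and 9.82 in WT hearts. Here 4 CAR KO samples were above all WT samples and CAR KO sample 5 lay within their range. The log2 fold change was 0.11 (95% confidence interval -0.01 to 0.23). The exact permutation test gave p = 0.0159, also not adjusted and the smallest of the 25 members. Mrpl2 was likewise named for its limma p in the same samples. In the other 23 members the permutation p was 0.0794 or more. Mrpl44, Mrpl39 and Mrpl21 had log2 fold changes of 0.11 (-0.02 to 0.25), 0.10 (-0.03 to 0.22) and 0.09 (-0.03 to 0.21), and their genotypes overlapped. Mrpl39 is the member closest to Cxadr on chromosome 16, at a distance of 6.358 Mb. Its signals were 11.25, 11.32, 11.43, 11.38 and 11.31 in CAR KO hearts, against 11.14, 11.19, 11.33, 11.29 and 11.25 in WT hearts. Mrps6 and Mrpl40 lie on the same chromosome at 13.7 and 59.42 Mb.

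On the other side, Mrps17 (chr5:129715450-129718712), a small subunit protein with a bacterial relative, had the lowest fold change. Its log2 signals were 9.51, 9.20, 9.71, 9.29 and 9.59 in CAR KO hearts, against 9.50, 9.50, 9.67, 9.75 and 9.70 in WT hearts. CAR KO samples 2 and 4 were below all WT samples, while the other 3 CAR KO samples lay within the WT range. The log2 fold change was -0.16 ± 0.10 (SE), with an interval of -0.38 to 0.06. Mrpl20 gave 10.04, 9.53, 10.06, 9.90 and 10.03 in CAR KO hearts, against 9.71, 10.14, 10.15, 10.18 and 10.02 in WT hearts. CAR KO sample 2 and WT sample 1 were both low, and the log2 fold change was -0.13 (-0.39 to 0.13). Mrpl32, Mrpl36 and Mrps25 followed with -0.08 (-0.24 to 0.09), -0.07 (-0.24 to 0.09) and -0.04 (-0.16 to 0.07).

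Genes linked to human cardiomyopathy were looked at separately. Mrpl3 gave 9.66, 9.68, 9.86, 9.65 and 9.77 in CAR KO hearts, against 9.52, 9.75, 9.82, 9.72 and 9.65 in WT hearts. Its genotypes overlapped, and its log2 fold change was 0.03 (-0.12 to 0.18). Mrpl44 gave 9.12, 9.09, 9.23, 9.23 and 9.06 in CAR KO hearts, against 8.94, 9.11, 9.10, 9.10 and 8.94 in WT hearts. WT samples 1 and 5 were low, and the other 3 WT samples lay among the CAR KO samples. Mrps22 gave 10.05, 10.13, 10.19, 10.28 and 10.05 in CAR KO hearts, against 9.97, 10.09, 10.13, 10.07 and 10.10 in WT hearts, with a log2 fold change of 0.07 (-0.06 to 0.20). The interval of each of these 3 genes lay within a 1.2-fold change.

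Mrps15 and Mrpl33, at the high and the low end of the signal range, had log2 fold changes of 0.04 and -0.04. The members differed in how steady they were between samples of a genotype. The median standard deviation within genotypes was 0.0978 for the members, 0.126 for 11702 other genes in the same signal range, 0.122 for 82 nuclear genes of oxidative phosphorylation and 0.0797 for 59 cytosolic ribosomal proteins. Mrps5, Mrpl38 and Mrps34 were the steadiest members with values of 0.0329, 0.035 and 0.0412. Mrps5 gave 10.58, 10.51, 10.60, 10.53 and 10.55 in CAR KO hearts, against 10.53, 10.59, 10.61, 10.56 and 10.58 in WT hearts. Mrpl22, a protein at the exit tunnel, varied most together with Mrpl47 (both 0.293). Mrpl22 gave 6.96, 6.90, 7.11, 6.80 and 7.53 in CAR KO hearts, against 6.92, 6.67, 7.19, 7.20 and 7.45 in WT hearts. The sample numbered 5 was the highest in both genotypes. Mrpl47 gave 8.39, 7.96, 8.73, 8.28 and 8.83 in CAR KO hearts, against 8.20, 8.19, 8.64, 8.62 and 8.40 in WT hearts.

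**Figure D2:**
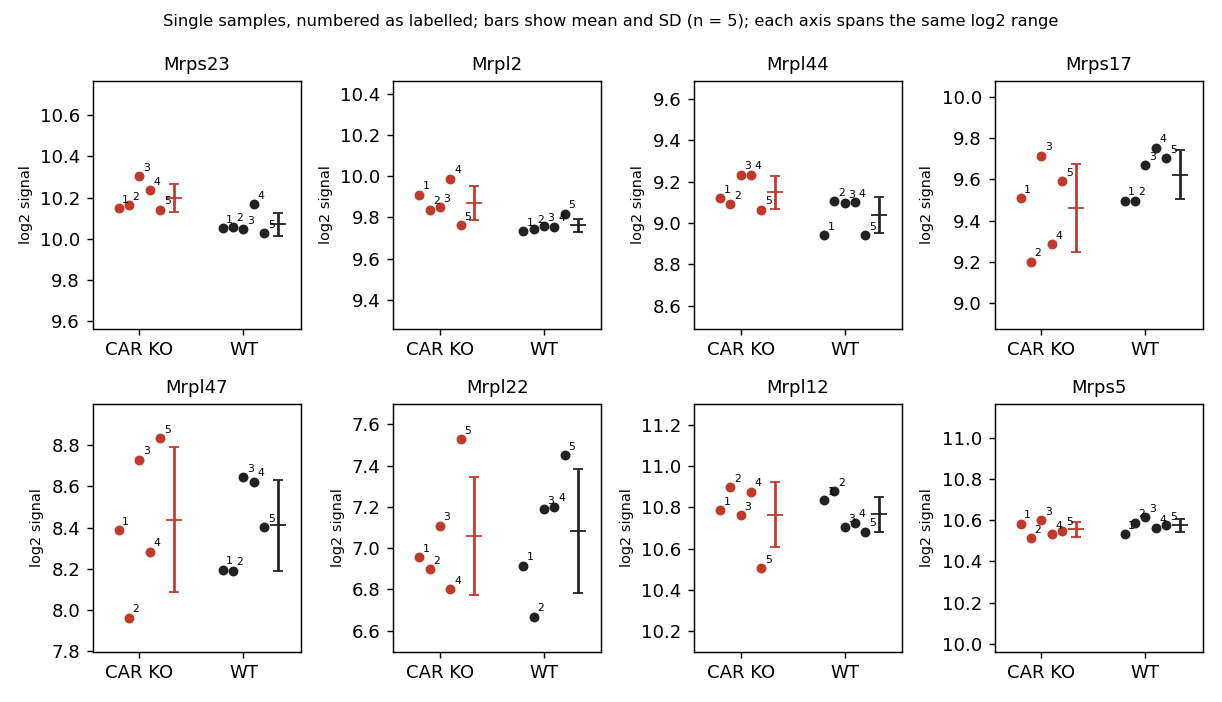
Log2 signal of 8 members in each CAR KO and WT sample (points, numbered as labelled) with mean and SD (n = 5). Mrps23 and Mrpl2 differ by 0.13 and 0.11 between genotypes (SD within genotypes 0.063 and 0.064), with overlap. Mrpl47 and Mrpl22 vary widely within both genotypes, and Mrps5 is nearly constant.

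Mrpl12, the stalk protein that also binds the mitochondrial RNA polymerase, averaged 10.76 ± 0.16 in CAR KO hearts and 10.77 ± 0.09 in WT hearts (SD, n = 5 each). It gave 10.786, 10.896, 10.761, 10.877 and 10.505 in CAR KO hearts, against 10.835, 10.878, 10.705, 10.726 and 10.683 in WT hearts. The sample numbered 5 was the lowest of each genotype. This was the case for 5 members (Mrpl12, Mrpl28, Mrpl38, Mrps23 and Mrps27), 6.49% against 20% of all genes. In 7 members (Mrpl1, Mrpl13, Mrpl22, Mrpl40, Mrpl42, Mrps16 and Mrps18b) sample 5 was the highest of each genotype, 9.09% against 10.7% of all genes. CAR KO sample 5 and WT sample 5 had the highest scores on the first principal component of the 19938 genes (32.9 and 21.63). The lowest score was that of CAR KO sample 4 (-21.74), followed by CAR KO sample 2 (-14.07) and WT sample 2 (-12.86). Both samples numbered 5 were high in liver markers. They had the lowest means of the cardiomyocyte markers, 12.81 in CAR KO sample 5 and 12.86 in WT sample 5. The part of these differences in the members' values was not tested.

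Single samples set the extremes of many members at once. CAR KO sample 4 was the highest of all 10 samples in 25 members and CAR KO sample 3 in 21 (32.5% and 27.3%, against 19.3% and 6.57% of all genes). The lowest value was in CAR KO sample 5 for 23 members, in WT sample 1 for 20 and in CAR KO sample 2 for 14 (29.9%, 26% and 18.2%, against 26.9%, 8.32% and 10.7% of all genes). The share of lowest values in CAR KO sample 5 was thus close to that over all genes. The mean over all members was 9.854, 9.826, 9.947, 9.909 and 9.848 in CAR KO samples, against 9.786, 9.853, 9.882, 9.862 and 9.873 in WT samples. Without WT sample 1 the median log2 fold change of the members was 0.016.

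**Figure D3:**
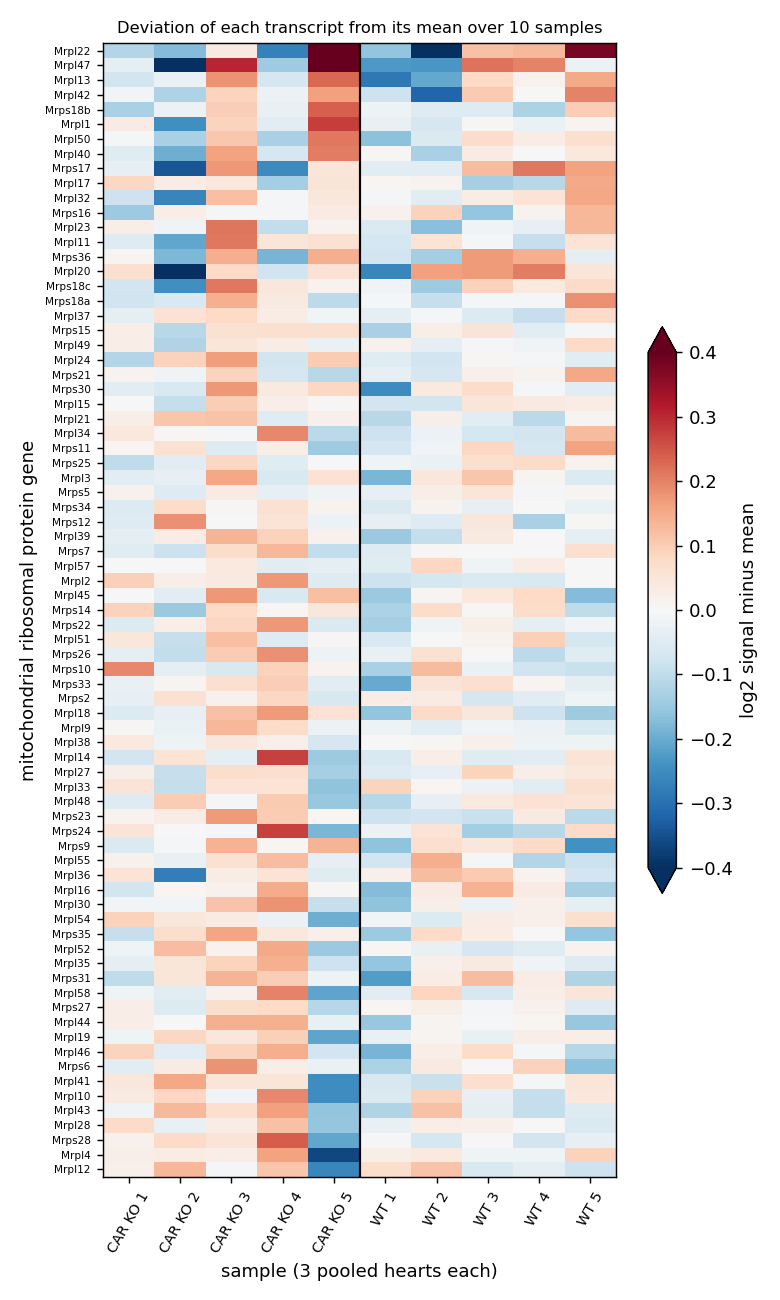
Deviation of each of the 77 members (rows) from its mean over the 10 samples (columns, CAR KO left of the line, WT right), in log2 units, with colours saturated beyond 0.4. Rows are sorted by the summed deviation in CAR KO sample 5 and WT sample 5, and the highest value lies in CAR KO sample 4 in 25 rows and in CAR KO sample 3 in 21.

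For 8 members the array carried 2 transcript clusters, of which the brighter was used. The position of a cluster was judged from its named neighbours in identifier order. For 4 members (Mrpl27, Mrpl41, Mrpl51 and Mrps33) the neighbours of the brighter cluster lay on another chromosome than the gene, so that it may report a copy, and signals of gene and copy cannot be told apart here. For Mrpl41, the brighter cluster had a mean signal of 10.24 and the one at the gene's own locus 7.55. The log2 fold changes of the brighter and the other cluster were 0.02 and -0.02 for Mrpl41, and -0.03 and -0.01 for Mrpl27. They were 0.01 and -0.03 for Mrpl51, and 0.04 and 0.03 for Mrps33. Both clusters of Mrpl47 lay at the gene, but only the brighter varied (SD within genotypes 0.293 and 0.0419). With clusters at the own locus in place of the brighter ones, the median log2 fold change of the members was 0.028 and 51 were higher by sign.

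Other genes of mitochondrial translation were read from the same fit. None of 16 translation factors and none of 24 assembly factors had an unadjusted p under 0.05, with medians of 0.031 and 0.016 and with 11 and 15 genes higher in CAR KO hearts by sign. The 21 mitochondrial aminoacyl-tRNA synthetases had a median of -0.0057, and 9 were higher and 12 lower by sign. Among the assembly factors, Rbfa, which acts in maturation of the small subunit, had a log2 fold change of 0.11 (-0.01 to 0.23). Of the synthetases, Ears2, which charges the tRNA for glutamate, had an unadjusted p under 0.05. Ears2 averaged 8.32 ± 0.15 in CAR KO hearts and 8.52 ± 0.04 in WT hearts (SD, n = 5 each; log2 fold change -0.20, interval -0.36 to -0.05). Of 9 genes for transcription and copying of mitochondrial DNA, Ssbp1, the single-strand binding protein, was also below this value, with a log2 fold change of 0.16 (0.00 to 0.32). None of 10 nuclear regulators, among them Nrf1, Gabpa and Ppargc1a, had an unadjusted p under 0.05, and their median was -0.0076 with 4 of 10 higher by sign. The median was 0.028 for the cytosolic ribosomal proteins and -0.007 for the oxidative phosphorylation genes, of which 47 of 59 and 33 of 82 were higher in CAR KO hearts by sign. At an unadjusted p under 0.05, none of the 59 cytosolic genes and 1 of the 82 was counted (Uqcrb, log2 fold change -0.13).

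The sample means of these lists did not all follow the same course. The oxidative phosphorylation genes were lowest in CAR KO sample 5 (11.03), against 11.30 to 11.38 in the other CAR KO samples and 11.22 to 11.33 in WT samples. The members' mean in CAR KO sample 5 (9.848) lay within the range of the other CAR KO samples. Markers of the epicardium, the outer cell layer of the heart, were lower in CAR KO hearts by sign in 4 of 4 genes, with list means of 9.93 to 10.39 in CAR KO samples and 10.34 to 10.51 in WT samples. Macrophage markers were lower by sign in 5 of 6 genes (median -0.24), with list means of 7.13 to 7.59 in CAR KO samples and 7.39 to 7.95 in WT samples. At an unadjusted p under 0.05, 2 of 4 epicardial (50%) and 2 of 6 macrophage markers (33.3%) were counted, against 2.71% of all genes. The epicardial genes were Upk3b (log2 fold change -0.46) and Tbx18 (-0.31). The macrophage genes were C1qa and Adgre1, and the mean signal of Adgre1 (6.03) was below the background level of 6.512. Endothelial markers were lower by sign in 4 of 5 genes (median -0.11) and blood markers in 4 of 4 (median -0.06). None of the endothelial and blood markers had an unadjusted p under 0.05. The part of these cell types in the members' values was not tested.

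**Figure D4:**
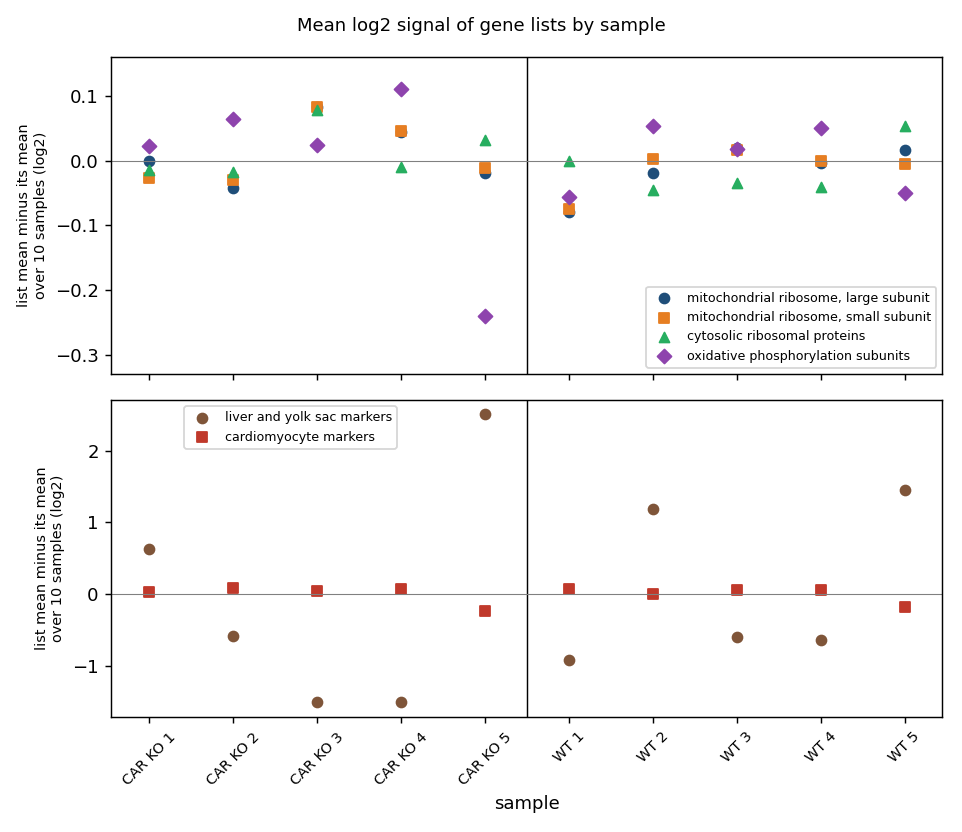
Mean log2 signal of gene lists in each sample minus the mean of that list over the 10 samples (CAR KO left of the line, WT right; no error bars, 1 value per sample). Both ribosomal subunits stay close together in every sample, oxidative phosphorylation genes drop in CAR KO sample 5, and liver markers range over 4.02 log2 units.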

How the data were processed

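Hearts of E10.5 embryos were profiled with Affymetrix Mouse Gene 1.0 ST arrays (5 CAR KO and 5 WT samples, assigned by the genotype in their labels). The authors deposited 1 table of log2 signals, already normalized. The submitters' processing notes name MAS5, and the steps from scanner output to table are not given in the sources used here, so that their effect on small differences is unknown. Of 35556 rows, 6612 control rows were left out. Genes were named from the platform annotation, using rows with 1 gene, and the brightest row stood for a gene. The 28944 clusters were fitted with limma 3.58.1 (R 4.3.3; lmFit, eBayes, no filter), and the Benjamini-Hochberg adjustment covered all of them. The procedure was tested on simulated data. Named members were the 5 with the smallest p in each direction, the 3 most and 3 least variable, the 2 brightest and 2 dimmest, and those of unusual placement or linked to human cardiomyopathy. Of each other list, the 2 genes with the smallest p could be named. Members, lists and rules were chosen with earlier results of these data known. Exact permutation tests over samples had been planned for members whose genotypes did not overlap. As there were none, those run on all 25 named members fall outside that plan. Alternatives concerned normalization, centring, filters, variance model, weights, the methods' t-test, replicate block, row per gene, subunit assignment and left-out samples. Promoters and coordinates came from RefSeq (GRCm38.p6). Figures were drawn with matplotlib 3.10.9.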

Additional observations from a re-analysis of the deposited data

Results flagged for a closer look

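Among the values described, 4 groups held 1 sample far from the other 4 of its genotype, measured as the gap to the nearest sample divided by the range of the group. For Mrps15, CAR KO sample 2 was low (11.39, gap 0.776). For Mrpl2, WT sample 5 was high (9.82, gap 0.735). For Mrps23, WT sample 4 was high (10.17, gap 0.773). For the mean of the small subunit, WT sample 1 was low (9.757, gap 0.761). Chance gives about 1 such group in 20, which is 2.8 of the 56 groups described. Over the 2 genotypes of all 77 members, 8 of 154 groups were beyond the limit, where chance gives about 7.7.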

How the results depend on the processing

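No member was called under any of the alternatives run. Array weights gave 2 called transcript clusters, and every other setting gave 1. Array weights also turned the order of the subunit medians, with 0.026 for the large and 0.015 for the small subunit. The number of members with an unadjusted p under 0.05 was 1 in the fit reported, 2 after quantile normalization and 0 after array median centring. It was 2 with the methods' t-test, 4 with array weights and 2 without the 3 samples rich in liver markers. That last setting was chosen after seeing the data. Over all 28944 transcript clusters, 696 passed this p in the fit reported, 839 after quantile normalization and 676 after array median centring. With the methods' t-test 760 clusters passed it, with array weights 1811 and without the 3 liver-rich samples 1214. The cause was not tested. Leaving out 1 sample gave 0 to 3 members with an unadjusted p under 0.05. There were 0 without CAR KO sample 4 or WT sample 1, 2, 3 or 5, and 3 without CAR KO sample 5. The number of clusters under this p was then 411 (without WT sample 4) to 1029 (without CAR KO sample 5). Leaving out 1 sample gave 1 called transcript cluster throughout, a median log2 fold change of 0.016 to 0.044 for all members, 0.0099 to 0.047 for the large subunit (lowest without CAR KO sample 3) and 0.017 to 0.053 for the small subunit (lowest without WT sample 1), and 59 to 70 members within a 1.2-fold change. Of 525 alternative values of the named members, 492 kept their sign.

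When sample numbers entered as a replicate block, 1 member had an unadjusted p under 0.05, 1 cluster was called and 1304 clusters had an unadjusted p under 0.05, against 696 without the block. Same-numbered samples correlated in their deviations at 0.0727 to 0.561, and 4 of 5 CAR KO and 3 of 5 WT samples correlated best with their own number. This is a hint from the data that same numbers may mark something shared, but the labels do not say so and 1 pair did not exceed 0.1, so the fit without the block was kept.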
